A study of Oryzias latipes with 2 samples.

Results

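The genes described here are the named marker genes of the medaka pituitary: all distinct genes that carry both a name and an Ensembl identifier in the marker tables that came with the female and the male single-cell library, without the hormone-related genes *lhb*, *fshb*, *tshba*, *sl*, *prl*, *gh*, *pomca*, *cga*, *nr5a1b* and *tph1* and without the GFP cassette. This rule gave 51 of the 79 distinct genes in the tables, after 17 genes without a name and 11 hormone-related genes were left out, and 51 of the 17554 genes listed in both libraries. The male table alone named 31 of them, the female table alone 7, and both tables named 13. The female table used here holds 25 rows, fewer than its label states, so these numbers describe only the rows at hand. The members were chosen by their measured levels in clusters of these same cells. The concentration of a member in a cell type is therefore given as a description, with no test.

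The study dissociated pituitaries of adult medaka (*Oryzias latipes*), pooled those of 24 females into 1 library and those of 23 males into another, and sequenced the RNA of single cells. All fish, about 8 months old, belonged to the d-rR *lhb*:GFP line, whose GFP is expressed from the *lhb* promoter, and the labels name no treatment. The sexes are thus represented by 1 library each, so that sex and library cannot be told apart and no test between them was possible. The female library held 2592 cells with 11750195 unique molecular identifiers (UMIs, each counting 1 captured RNA molecule), and the male library 3804 cells with 17691130. Red blood cells made up 371 and 559 of these cells, with a median of 518 and 503 UMIs per cell, whereas the median over all cells was 3758 in females and 3422 in males. The libraries shared 16 cell barcodes.

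The pituitary is built from endocrine cell types that each secrete 1 main hormone, among supporting cells, blood vessels and blood. A marker gene of a cell type may encode its hormone, but it may equally encode a protein that folds, stores or modifies the hormone, a receptor or channel that makes the cell excitable, or an enzyme whose substrate only that cell handles. The subject here is the named marker genes other than the hormone-related ones, whatever they encode. The level of a gene in a cell type is the sum of its UMIs over all cells of that type, divided by the sum of all UMIs of these cells and multiplied by 10000. Levels are not divided by gene length and are compared mainly within a gene. Where genes are ranked or set in a ratio, the order is that of their UMIs. Intervals are exact 95% intervals (Poisson for a level, conditional binomial for a ratio of levels, Clopper-Pearson for a share of cells) and cover counting error only.

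The deposited annotation names 13 cell types, and hormone genes were compared with it. The level of *prl* was 2475 in female and 1945 in male lactotropes, that of *gh* 2370 and 2720 in somatotropes, and that of *pomca* 5736 and 6265 in melanotropes, each the highest of all types. *cga* did not set its type apart by level: it was 612 in female and 788 in male *cga*-expressing cells, below the 1009 and 961 of Lh gonadotropes and the 979 and 1219 of thyrotropes. *lhb* was 376 and 690 in Lh gonadotropes, *fshb* 1326 and 810 in Fsh gonadotropes and *tshba* 442 and 710 in thyrotropes, again each the highest of all types. Female thyrotropes were uneven, as the median cell had 32.8 *tshba* UMIs per 10000, against 348.5 in males. The somatolactotrope label held only in part: all 15 female somatolactotropes reached 100 *sl* UMIs per 10000, but 12 of the 38 male somatolactotropes did so. Low levels of these abundant genes were found in every type: *prl* was between 13.5 and 56.8 in the other female types and between 15.6 and 179.8 in the other male types, of which thyrotropes were the highest and also carried *pomca* at 549.7. The median male thyrotrope had 21.1 and 21.4 of these, so that a few cells made up the pooled values.

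Of the 51 genes, 50 had at least 100 UMIs in each library (the exception was *cldn19*, with 16 in females). The leading cell type, the one with the highest level, was the same in both libraries for 45 of the 50. The share of all 7415 genes with as many UMIs that kept their leading type was 49.3%. All 7 genes named by the female table alone and all 13 named by both tables had the same leading type in both libraries, as did 25 of the 30 named by the male table alone. The members were chosen by their levels in these clusters, so this agreement was partly fixed in advance and nothing is read from it. A level at least 2-fold above the next type in both libraries was found for 28 of the 50 genes, beside 8.47% of all genes. As this contrast chose the genes, nothing is read from that difference. Counts of genes led by a type use the mean of the levels in both libraries. Uncharacterized cells led 13 of the 51 genes (25.5%, beside 16.1% of the 7415), and *cga*-expressing cells 9 (17.65%, beside 31.7%). Gonadotrope-like cells, macrophages and red blood cells led 4 each (7.84%, beside 9.20%, 15.5% and 3.84%). Fsh gonadotropes, lactotropes, somatotropes, melanotropes and corticotropes led 3 each (5.88%, beside 2.75%, 3.49%, 1.78%, 0.445% and 4.61%). Thyrotropes and somatolactotropes led 1 each (1.96%, beside 3.98% and 6.04%). Lh gonadotropes led none by this mean, beside 0.5125% of the 7415. Nothing is read from these shares either.

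**Figure D1:**
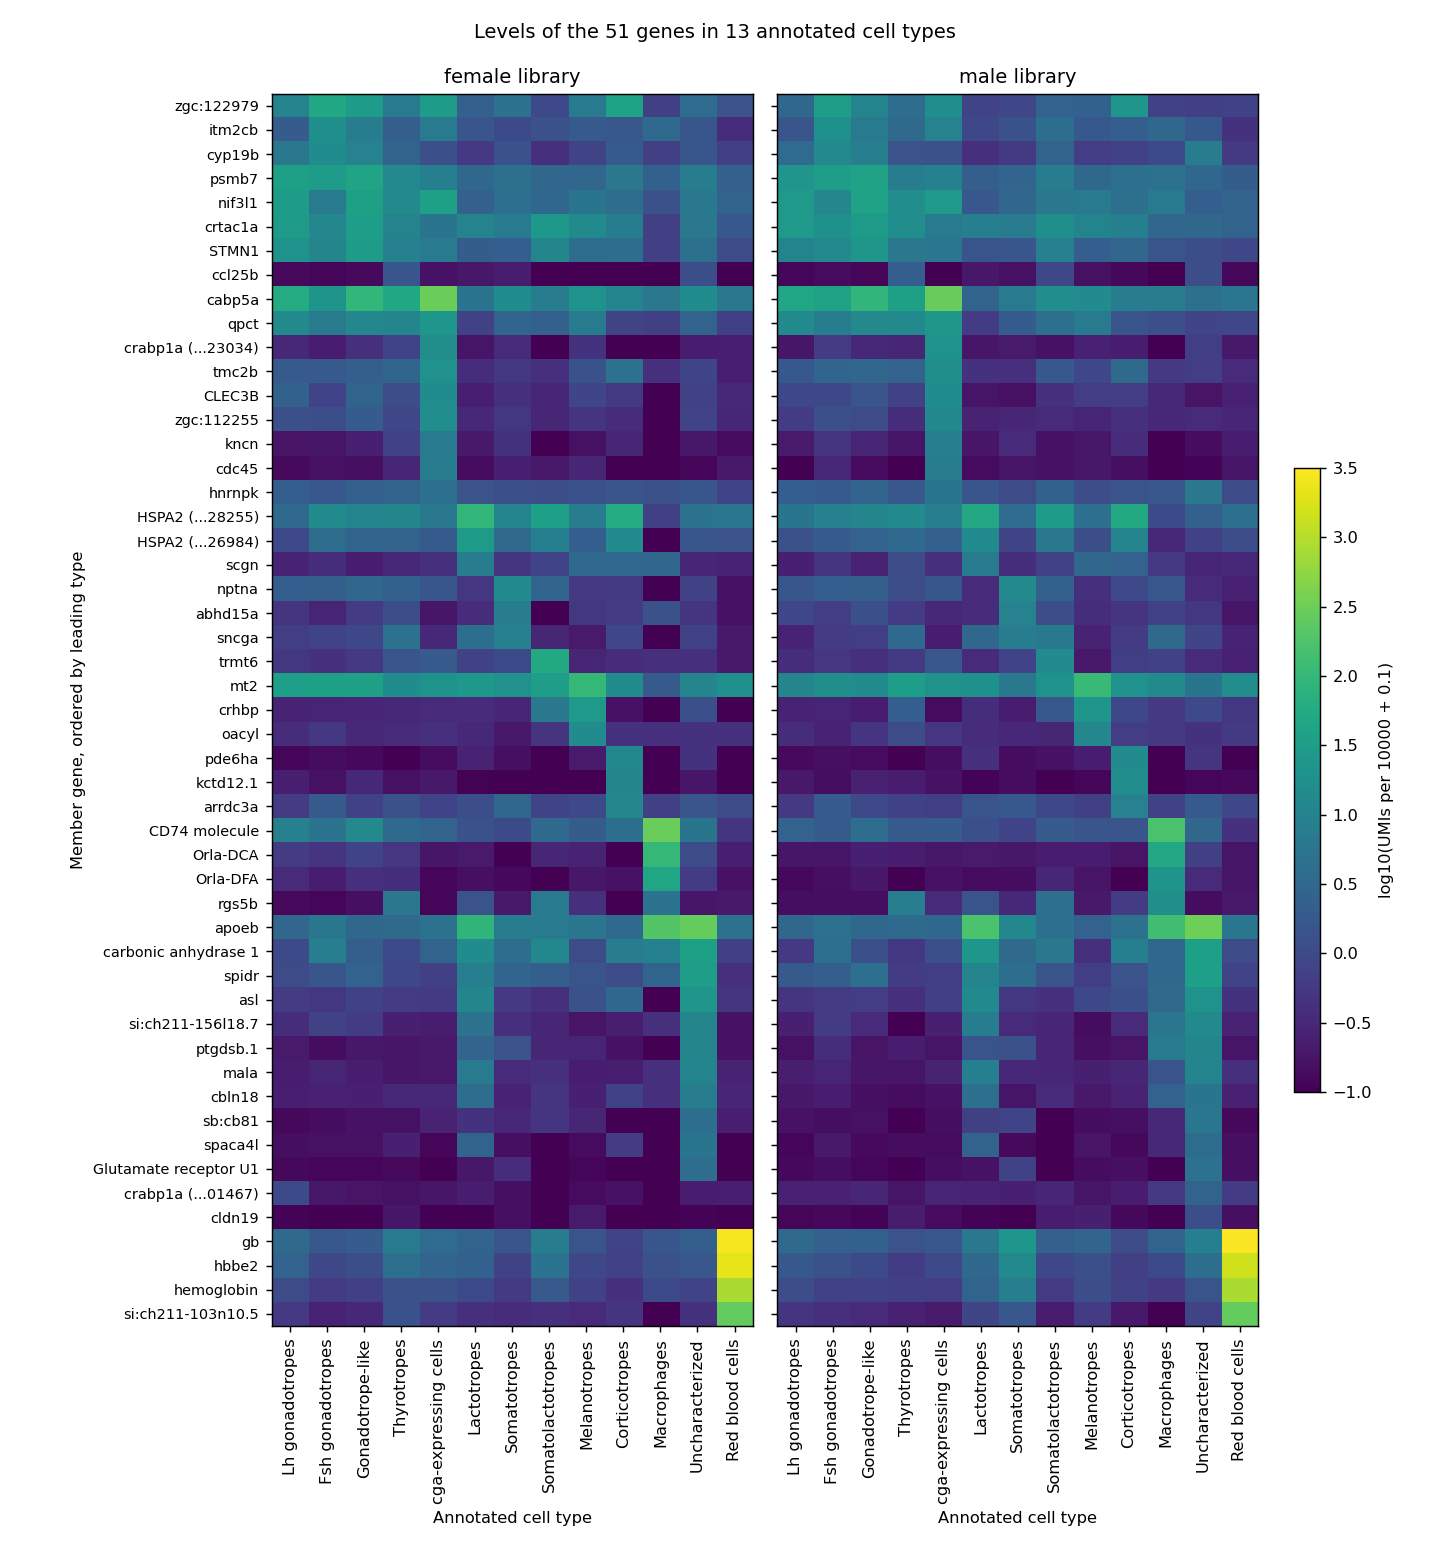
Level of each of the 51 genes (rows, ordered by leading type) in the 13 annotated cell types (columns) of the female and the male library, as log10(UMIs per 10000 + 0.1). Of the 50 genes with at least 100 UMIs in each library, 45 have the same highest column in both panels. In 28 of the 50 it stands at least 2-fold above the next column in both. For 8 of the 13 genes of uncharacterized cells, lactotropes are the next column in each library, a count not taken over all genes.

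Melanotropes, the *pomca*-expressing cells that make melanocyte-stimulating hormone, led 3 genes. The highest was *mt2* (ENSORLG00000015580), a metallothionein that binds zinc and copper, with a level of 100.4 (97.7 to 103) in the female and 108 (106 to 110) in the male library. It was present in every other type too, at 1.81 to 37.1 in females and 5.599 to 33.2 in males. *crhbp* (ENSORLG00000002228) encodes the binding protein that sequesters corticotropin-releasing hormone. Its level was 25.6 (24.3 to 27.0) in female and 22.1 (21.2 to 23.1) in male melanotropes, and it was detected in 54 of 54 and 49 of 53 cells. The next type was somatolactotropes in females, at 6.25, and thyrotropes in males, at 2.14. The male thyrotrope value rested on 2 of 46 cells, 1 of which held 96.2% of the UMIs. *oacyl* (ENSORLG00000005993), which is named after O-acyltransferases, had 14.4 and 12.2 UMIs per 10000 in melanotropes and at most 0.433 and 0.969 elsewhere.

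Corticotropes express *pomca* as well, and process its product to adrenocorticotropic hormone. The 3 genes they led were low in melanotropes. *kctd12.1* (ENSORLG00000011364), an auxiliary subunit of the GABA-B receptor in mammals, had a level of 10.99 (9.37 to 12.8) in female and 16.3 (15.0 to 17.6) in male corticotropes, and no other type was above 0.212. *pde6ha* (ENSORLG00000028008) encodes the inhibitory subunit of the cone photoreceptor phosphodiesterase and is best known from the retina. Its level was 12.6 (10.9 to 14.6) in female and 14.9 (13.7 to 16.1) in male corticotropes, and the next type, uncharacterized cells, had 0.360 and 0.398. Within corticotropes the spread from cell to cell was wide: the quartiles were 0.8999, 5.61 and 13.2 in females, and 1 of 25 cells held 26.2% of the UMIs. *arrdc3a* (ENSORLG00000010381), an arrestin-domain protein, stood 3.86-fold above the next type in females and 4.97-fold in males.

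Among lactotropes, the prolactin cells, both genes labelled *HSPA2* led, together with *scgn*. *HSPA2* encodes a member of the Hsp70 family of chaperones, which hold and refold unfolded proteins. The gene ENSORLG00000028255 reached 95.7 (94.2 to 97.3) in female and 51.6 (50.8 to 52.3) in male lactotropes, and 58.8 and 53.9 in corticotropes. The lead of lactotropes was thus 1.63-fold in females, whereas in males corticotropes stood first by a factor of 1.05. When the cell with most UMIs was left out of each type, male lactotropes were first again. The second gene, ENSORLG00000026984, had 28.6 and 14.5 UMIs per 10000 in lactotropes. There were 3.12 to 4.59 UMIs of the first per UMI of the second in female and 3.57 to 5.04 in male types, outside macrophages. In males lactotropes had the lowest of these ratios and corticotropes the highest. The annotation gives both genes 1 name, and how reads that fit both were counted is not given in the sources used here, so the split between them is uncertain. *scgn* (ENSORLG00000004844), the calcium sensor secretagogin, had 7.72 and 7.19 in lactotropes, 2.26-fold and 2.44-fold above melanotropes.

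Somatotropes, the growth hormone cells, led *nptna*, *sncga* and *abhd15a*. *nptna* (ENSORLG00000004965), the cell adhesion molecule neuroplastin, reached 14.9 (13.8 to 16.2) in the female and 13.1 (12.4 to 13.8) in the male library, 5.05-fold and 5.50-fold above the next type. *abhd15a* (ENSORLG00000030040), a member of the alpha/beta hydrolase family, had 8.03 and 9.75. *sncga* (ENSORLG00000002687), gamma-synuclein, was less restricted. Its level was 9.14 and 8.07 in somatotropes, but also 4.59 and 3.31 in thyrotropes and 4.15 and 3.04 in lactotropes, with red blood cells at 0.101 and 0.179. Male somatolactotropes had 6.49, a value described further on.

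Thyrotropes led 1 member, the chemokine gene *ccl25b* (ENSORLG00000028881), at 1.53 (1.14 to 2.01) in females and 2.10 (1.57 to 2.75) in males, and a UMI of it was found in 16 of 69 and 13 of 46 thyrotropes. Its second type was the uncharacterized cells, at 1.12 and 1.06. Within these, the cells of cluster 13 alone had 1.57 and 1.80. The intervals of thyrotropes and of cluster 13 overlapped in both libraries, so that the order of these levels is not resolved by the counts.

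Somatolactotropes led *trmt6* (ENSORLG00000009862), a subunit of the tRNA methyltransferase that modifies adenosine in the T loop. Its level was 53.5 (49.1 to 58.2) in the female library and 14.5 (12.6 to 16.6) in the male library, and the ratio of 3.69 (3.15 to 4.34) was the highest female to male ratio of any member in its leading type. The male label, however, covered cells with and cells without *sl*. In the 12 male cells with at least 100 *sl* UMIs per 10000, *trmt6* was 39.2 (34.1 to 44.9) and was found in 12 of 12 cells. In the other 26 male cells it was 0.923 (0.422 to 1.75) and was found in 6. Among the cells with *sl*, the female to male ratio was 1.36 (1.16 to 1.61). Other members followed the same division. *crhbp* had 6.25 in female and 4.48 in male cells with *sl*, against 0.103 in the male cells without. *rgs5b* had 6.95 and 6.91 in cells with *sl* and 2.98 without. *sncga* went the other way, with 98 UMIs in the 26 male cells without *sl* and 0 in the 12 cells with it. At this depth, that 0 allows a level of up to 0.689.

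Gonadotropes and thyrotropes share the hormone alpha subunit encoded by *cga*, and 16 further members were led by gonadotropes or by other cells that carry it. Fsh gonadotropes led *zgc:122979*, *itm2cb* and *cyp19b*. *zgc:122979* (ENSORLG00000004974), which bears a clone name, had 49.0 (47.1 to 51.01) in the female and 33.6 (32.5 to 34.7) in the male library, followed by corticotropes with 39.9 and 22.4. *itm2cb* (ENSORLG00000026575), an integral membrane protein, had 17.1 and 18.4. *cyp19b* (ENSORLG00000005548) encodes the brain form of aromatase, which converts androgens to oestrogens. It had 15.3 (14.2 to 16.4) in female and 12.8 (12.2 to 13.5) in male Fsh gonadotropes, 1.56-fold and 1.54-fold above gonadotrope-like cells, and was detected in 72 of 72 female and 90.4% of male cells, against 4.85% and 3.22% of the much shallower red blood cells.

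Gonadotrope-like cells, in which *lhb* was 148 in the female and 238 in the male library against 376 and 690 in Lh gonadotropes, led *psmb7*, *nif3l1*, *crtac1a* and *STMN1*. All 4 were also present in Lh gonadotropes, at 19.7 to 35.5 in the female and 10.7 to 27.3 in the male library. *psmb7* (ENSORLG00000013170), a catalytic subunit of the proteasome, had 41.5 (40.7 to 42.3) and 39.4 (38.5 to 40.3) and was found in 100% and 99.5% of the cells. From cell to cell the quartiles were 31.1, 41.2 and 52.4 in females. *crtac1a* (ENSORLG00000011469), cartilage acidic protein, had 33.1 and 28.5 in gonadotrope-like cells and stood 1.18-fold and 1.05-fold above Lh gonadotropes. *STMN1* (ENSORLG00000021843), stathmin, which destabilises microtubules, had 30.0 and 24.0. For *nif3l1* (ENSORLG00000006267) the order differed between the libraries. In females *cga*-expressing cells had 37.6 (35.9 to 39.4) and gonadotrope-like cells 36.5 (35.8 to 37.3), with overlapping intervals. In males they had 25.6 (24.3 to 26.9) and 38.3 (37.4 to 39.3).

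The cells annotated as *cga*-expressing led 9 members, and for 7 of them the lead was more than 3-fold in both libraries. The highest was *cabp5a* (ENSORLG00000029871), a calmodulin-like calcium-binding protein, with 311 (306 to 316) in the female and 282 (278 to 286) in the male library and at least 1 UMI in 120 of 120 and 160 of 160 cells. Gonadotrope-like cells followed with 94.9 and 91.6. *qpct* (ENSORLG00000017383) encodes glutaminyl cyclase, which forms the pyroglutamate at the N-terminus of several peptide hormones, and had 22.9 and 24.0, with 14.1 and 13.8 in Lh gonadotropes. *tmc2b* (ENSORLG00000012327), a transmembrane channel-like protein known from the mechanotransduction of hair cells, had 19.0 and 17.4.

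Further members of the same cells were lower but more exclusive. The *crabp1a* gene ENSORLG00000023034, a binding protein for retinoic acid, had 16.7 (15.5 to 17.9) and 19.8 (18.7 to 21.0), 23.6-fold and 34.6-fold above the next type. *cdc45* (ENSORLG00000002724), which belongs to the helicase of replicating DNA, had 7.69 (6.92 to 8.53) and 7.92 (7.23 to 8.66), 37.2-fold and 36.7-fold above the next type. *kncn* (ENSORLG00000022578), kinocilin, had 7.43 and 8.36, *zgc:112255* (ENSORLG00000012573) 15.9 and 12.6, and *CLEC3B* (ENSORLG00000025933), tetranectin, 15.1 in each. Among the cells of this type the members differed in how evenly they were spread. After every cell was thinned to 2200 UMIs, a UMI of *qpct* was found in 99.1% and 98.6% of the cells, of *cdc45* in 50.9% and 67.3%, and of *CLEC3B* in 44.4% and 57.1%. In red blood cells, which should lack them, the unthinned share of cells with a UMI of *cdc45* was 0.809% and 0.537% and that of *CLEC3B* 1.89% and 1.07%, at a median of 518 and 503 UMIs per cell.

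Uncharacterized cells led 13 members. *apoeb* (ENSORLG00000013986), apolipoprotein E, a carrier of lipids between cells, had the highest level of them, 273 (271 to 276) in females and 323 (321 to 325) in males, and was also found in macrophages, at 196 and 134. *carbonic anhydrase 1* (ENSORLG00000026936), which hydrates carbon dioxide, had 36.4 and 34.7. *spidr* (ENSORLG00000017445), a scaffold protein of DNA repair, had 33.6 and 35.1, and *asl* (ENSORLG00000002500), argininosuccinate lyase of the urea cycle, 21.9 and 20.6. The others, below 14 in both libraries, were *si:ch211-156l18.7* (ENSORLG00000012662), *ptgdsb.1* (ENSORLG00000007143, a prostaglandin D synthase), *mala* (ENSORLG00000003048, a proteolipid of membrane rafts), *cbln18* (ENSORLG00000021874, of the cerebellin family), *spaca4l* (ENSORLG00000029444), *sb:cb81* (ENSORLG00000024026), *Glutamate receptor U1* (ENSORLG00000016860), *cldn19* (ENSORLG00000012418, a claudin of tight junctions) and the *crabp1a* gene ENSORLG00000001467.

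For 8 of these 13 genes in each library the second type was the lactotropes, with *ptgdsb.1* among the 8 in females and *apoeb* in its place in males. How often lactotropes come second among all genes led by uncharacterized cells was not taken, so nothing is read from this count. The annotation splits lactotropes into clusters 3 and 4 and uncharacterized cells into clusters 13 and 14, with a further cluster 16 in males. In cluster 3, *apoeb* had 10.8 in females and 12.1 in males. In cluster 4 it had 147 and 214, and in cluster 14 it had 442 and 479. All 11 members with enough UMIs in cluster 14 followed this order, with cluster 4 above cluster 3 and below cluster 14 in both libraries. These genes were taken because uncharacterized cells led them, so a level in cluster 14 above the lactotropes was partly fixed in advance. The share of all genes with this order was not taken. The level in cluster 4 was between 31.2% and 52.4% of that in cluster 14 in females (median 38.0%) and between 34.9% and 50% in males (median 44.1%). The levels in the female cluster 14 ran from 0.344 for *Glutamate receptor U1* to 442 for *apoeb*. The share was poorly determined for *Glutamate receptor U1*, at 38.0% (16.9 to 80.0) in females and 34.9% (18.3 to 65.5) in males. It was 33.3% (32.6 to 34.0) for *apoeb* and 52.4% (46.3 to 59.2) for *ptgdsb.1* in females, so these counts do not give 1 common share.

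Cells of cluster 4 carried the hormone gene of lactotropes as well. Of the 69 female cells 94.2%, and of the 222 male cells 94.1%, had at least 100 *prl* UMIs per 10000, but the median *prl* level per cell was 52.9% of that in cluster 3 in females and 46.6% in males. Both 100 *prl* and 50 *apoeb* UMIs per 10000 were reached by 81.2% and 90.1% of the cells of cluster 4, by 4.07% and 4.57% of cluster 3, and by 4.55% and 3.37% of cluster 14. The median depth was 9911 and 8315 UMIs per cell in cluster 4, 5829 and 3956 in cluster 3 and 3208 and 2831 in cluster 14. The genes that lactotropes led were lower in cluster 4: *HSPA2* (ENSORLG00000028255) had 67.0 against 131 in the female and 44.4 against 76.4 in the male library, and *scgn* 5.86 against 10.0 and 6.25 against 10.46. The part of this depth in the values of cluster 4 was not tested, nor was that of droplets with more than 1 cell.

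**Figure D2:**
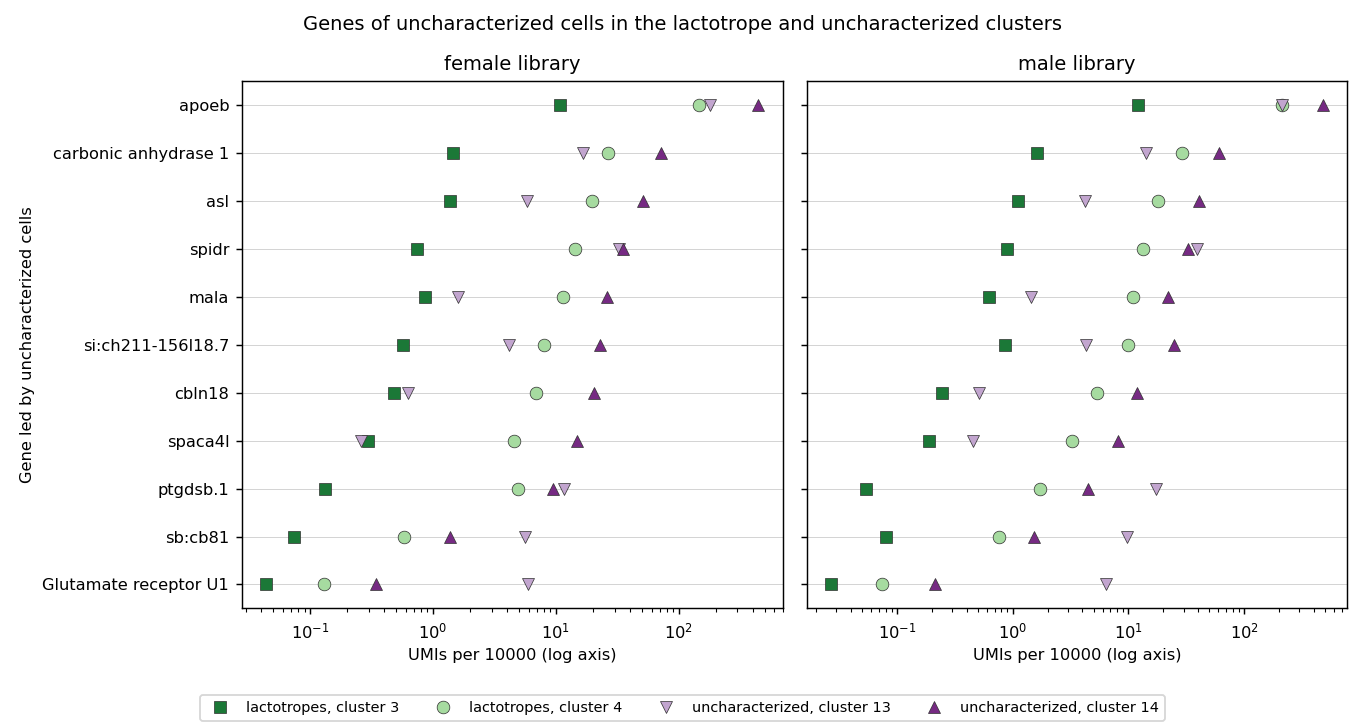
Levels (UMIs per 10000, log axis) of 11 genes led by uncharacterized cells in lactotrope clusters 3 and 4 and in uncharacterized clusters 13 and 14 of the female and the male library, 1 pooled value per cluster. In every row the circle of cluster 4 lies between the square of cluster 3 and the upward triangle of cluster 14, at 31.2% to 52.4% of cluster 14.

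The clusters of uncharacterized cells themselves differed in their members. Cluster 14 was above cluster 13 in 8 of the 11 genes in females and in 7 in males. *spaca4l* had 14.7 in cluster 14 and 0.261 in cluster 13 of females, and 8.16 and 0.458 in males, and *cbln18* and *mala* had a like order. *Glutamate receptor U1* was on the other side, with 5.93 in cluster 13 and 0.344 in cluster 14 of females and 6.42 and 0.213 in males, as was *sb:cb81*, with 5.58 and 1.38 in females and 9.81 and 1.52 in males. *spidr* differed little, at 32.6 and 35.3 in females and 39.0 and 32.5 in males.

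A group of members was carried by cluster 16, which comprised 21 cells of the male library and none of the female library. *cyp19b* had 210 (201 to 219) in these cells, which was above its level in any other type. *hnrnpk* (ENSORLG00000005161), an RNA-binding protein, had 135 (128 to 142), and *cldn19* 30.5 (27.1 to 34.2). Each of these 3 genes was detected in 21 of 21 cells. *Glutamate receptor U1* had 38.4 and was found in all 21 too, while *crabp1a* ENSORLG00000001467 had 66.9 and was found in 8. *apoeb* was at 7.75 in the same cells. All but 2 of the 301 UMIs of *cldn19* in male uncharacterized cells came from this cluster.

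The male leading type of *hnrnpk* depended on these 21 cells. In male uncharacterized cells *hnrnpk* had 6.18 (5.89 to 6.48), just above *cga*-expressing cells with 5.54, and 1.41 without cluster 16. In females it was led by *cga*-expressing cells, with 4.30 (3.73 to 4.94). The *crabp1a* gene had 2.63 (2.44 to 2.83) in male uncharacterized cells and 0.242 without cluster 16, against 0.128 in females. Its leading type in females was Lh gonadotropes, at 0.943, but 92.1% of these UMIs came from 1 of 535 cells, and without that cell the level was 0.0745.

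Macrophages, 15 cells in each library, led 4 members, 3 of them of the antigen-presentation pathway, in which class II molecules display peptides to T cells and the invariant chain CD74 escorts them through the cell. *CD74 molecule* (ENSORLG00000004913) had 291 (273 to 310) in the female and 159 (147 to 171) in the male library. The class II genes *Orla-DCA* (ENSORLG00000000021) and *Orla-DFA* (ENSORLG00000026405) had 98.7 (88.3 to 110) and 46.5 (39.4 to 54.5) in females and 52.1 (45.6 to 59.3) and 21.0 (17.0 to 25.8) in males. *CD74* was detected in 11 of 15 and 12 of 15 of the cells, which had a median of 1946 and 2823 UMIs. The fourth member, *rgs5b* (ENSORLG00000010887), a regulator of G-protein signalling, rested on 17 UMIs in 5 female and 74 UMIs in 7 male macrophages, 1 cell holding 52.9% and 41.9% of them. Its levels in thyrotropes, 6.06 (5.26 to 6.94) and 8.36 (7.26 to 9.57), had more UMIs behind them.

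*CD74* was not confined to macrophages. It had 13.1 (12.6 to 13.5) in gonadotrope-like cells and 9.03 (8.69 to 9.39) in Lh gonadotropes of the female library, against 3.95 (3.66 to 4.25) and 2.52 (2.38 to 2.67) in the male library, and 0.370 and 0.333 in red blood cells. With cells thinned to 2200 UMIs, a UMI was found in 63.4% and 56.4% of these female cells and in 33.1% and 31.0% of the male ones. For each UMI of *Orla-DCA* there were 2.95 UMIs of *CD74* in female and 3.05 in male macrophages. In Lh gonadotropes there were 18.2 and 29.5, and in gonadotrope-like cells 18.7 and 27.2, so the genes did not keep the ratio of macrophages there. This was not particular to these types, as lactotropes had 11.1 and 10.4 and *cga*-expressing cells 31 and 19.8, the latter on 4 and 6 UMIs of *Orla-DCA*. Red blood cells had 2.75 and 4.33, on 4 and 3 such UMIs. The ratio of *Orla-DCA* to *Orla-DFA* was 2.12 and 2.48 in macrophages and 1.89 and 3.23 in Lh gonadotropes.

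Red blood cells led the globins *gb* (ENSORLG00000003046), *hbbe2* (ENSORLG00000026120) and *hemoglobin* (ENSORLG00000027445), and *si:ch211-103n10.5* (ENSORLG00000027969). *gb* had 2757 (2738 to 2776) in the female and 2947 (2930 to 2964) in the male library, *hbbe2* 2160 and 1508, *hemoglobin* 849 and 853, and the last gene 263 and 271. The levels of *hemoglobin* differed by a factor of 0.995 (0.979 to 1.01), whereas *hbbe2* was 1.43-fold (1.42 to 1.45) higher in females. The *hemoglobin* ratio, from pooled UMIs, depended on the processing. It was 0.9186 with the mean over cells and 0.5846 with exon UMIs alone. With cells thinned to 2200 UMIs, which left 21 and 25 red blood cells, it was 0.8364. Exon and spanning UMIs were 50.23% of its matrix UMIs in females and 62.73% in males. The *hbbe2* ratio was 1.498 with exon UMIs and 1.327 with thinned cells. There were 78.3 *hbbe2* UMIs per 100 of *gb* in female red blood cells and 51.2 in male ones.

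Globin UMIs were found in other cells as well. At least 1 *gb* UMI was present in 47.2% of the 2221 other female cells and in 48.6% of the 3245 other male cells, at pooled levels of 2.65 and 5.59. There were 69.8 *hbbe2* UMIs per 100 of *gb* in these female cells and 50.4 in the male ones, against 78.3 and 51.2 in the red blood cells of the same library. For *hemoglobin* there were 30.4 and 31.2, against 30.8 and 29.0. *si:ch211-103n10.5* was further from red blood cells in females, at 13.6 against 9.52, than in males, at 9.9 against 9.2. A few cells held much of the signal: 8 female and 22 male cells with at least 100 *gb* UMIs per 10000 carried 40.5% and 69.3% of it, and without them the levels were 1.58 and 1.73. In male somatotropes, the type with the highest *gb* level outside blood at 22.9, 3 of 127 cells held 1548, 351 and 298 of the 2345 UMIs. Without these cells the level was 1.49, and female somatotropes, where no cell had more than 5, stood at 1.42.

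Between the libraries, most members had like levels in their leading type, as did most of all genes tested. Of the 51 genes, 42 differed by less than 1.5-fold. At that fold 6 members were higher in females and 3 in males, beside 14.01% and 8.618% of the 7345 genes tested. At least 2-fold different were 5 members, which is 9.80% of them beside 7.64% of the 7345 genes. The genes *trmt6* and *Orla-DFA* (2.21-fold, 1.70 to 2.90) were higher in females, against 4.77% of all genes. Higher in males were *cldn19* (1.10 against 0.00986), *crabp1a* ENSORLG00000001467 (20.5-fold, 13.9 to 31.6) and *rgs5b* (16.9 against 5.13, 3.29-fold, 1.93 to 5.96), against 2.87% of all genes. The female value of *cldn19* stood on 2 UMIs, so that its male to female ratio of 111 has an interval from 30.6 to 924. All 5 were measured in few cells: 15 macrophages in each library, 15 and 38 somatolactotropes, or the 21 cells of cluster 16. Just below the threshold were both *HSPA2* genes, 1.97-fold and 1.86-fold higher in female lactotropes, *Orla-DCA* (1.90-fold) and *CD74* (1.83-fold).

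**Figure D3:**
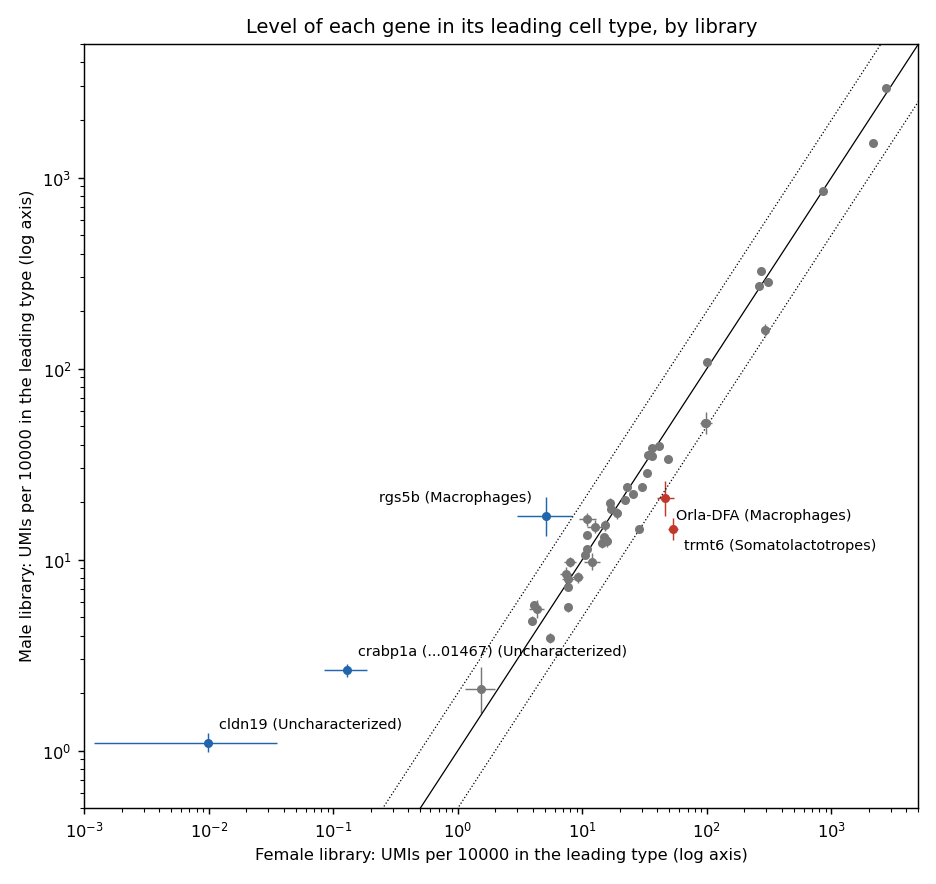
Level of each of the 51 genes in its leading cell type in the female (x axis) and the male library (y axis), in UMIs per 10000 on log axes, with exact 95% Poisson intervals. The solid line marks equal levels and the dotted lines a 2-fold difference, and the 5 named genes, 2 higher in females (red) and 3 higher in males (blue), lie beyond them.

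All cell types were then compared, leading types included. Over all pairs of a member and a cell type with at least 100 UMIs in both libraries together, red blood cells aside, 53 of 315 pairs were at least 2-fold higher in females, 16.8% beside 1.95% of the pairs of all genes, and 22 were at least 2-fold higher in males, 6.98% beside 0.903%. Pairs of 1 gene are not independent of each other. The genes led by red blood cells stayed in this count through their UMIs in other types, much of them in a few cells. Among the 22 pairs, *gb* gave 4, *si:ch211-103n10.5* 3, and *hbbe2* and *hemoglobin* 2 each. Also among the 22, *cyp19b*, *hnrnpk*, *cldn19* and both *crabp1a* genes gave 1 each in uncharacterized cells. Without cluster 16, their female to male ratios were between 0.529 and 2.64. In somatolactotropes *cabp5a*, *psmb7* and *sncga* gave 1 each. Among cells with *sl*, the ratios of *cabp5a* and *psmb7* were 4.04 and 1.14, and *sncga* had 2 female and 0 male UMIs. Among the 53 pairs, *gb* gave 3 and *hbbe2* 2. The 53 also held *trmt6* in somatolactotropes, with a ratio of 1.36 among cells with *sl*. Of the 13 members with at least 10 such types, 2 were higher in females in every one: *CD74* in 11 of 11 types, with a ratio between 1.09 and 3.58, and *zgc:122979* in 10 of 10, with a ratio between 1.46 and 6.06. Among all genes of this kind 7.44% had that pattern.

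*mt2* in melanotropes had a female to male ratio of 0.926 with pooled UMIs, but its direction depended on the processing. The ratio was 1.14 with the mean over cells, 1.14 with cells thinned to 2200 UMIs and 1.94 without cells above the 95th percentile of UMIs. In Lh gonadotropes *mt2* was 3.09-fold (2.99 to 3.19) higher in females than in males, at 34.8 against 11.3. It was 2.51-fold (2.40 to 2.62) higher in gonadotrope-like cells and 2.13-fold (2.001 to 2.27) in Fsh gonadotropes. The difference was not limited to gonadotropes: somatotropes had 19.1 in females and 6.25 in males, a ratio of 3.05 (2.75 to 3.40), and 7 of the 11 types with at least 100 UMIs were higher in females. In thyrotropes the order of the pooled levels was opposite, with 15.3 in females and 33.2 in males. Pooled *pomca* in male thyrotropes was 549.7, against 21.4 in the median cell. The part of the few cells with high *pomca* in this *mt2* value was not tested. The median cell moved with the pooled level in Lh gonadotropes, from 4.79 UMIs per 10000 in males to 14.6 in females.

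**Figure D4:**
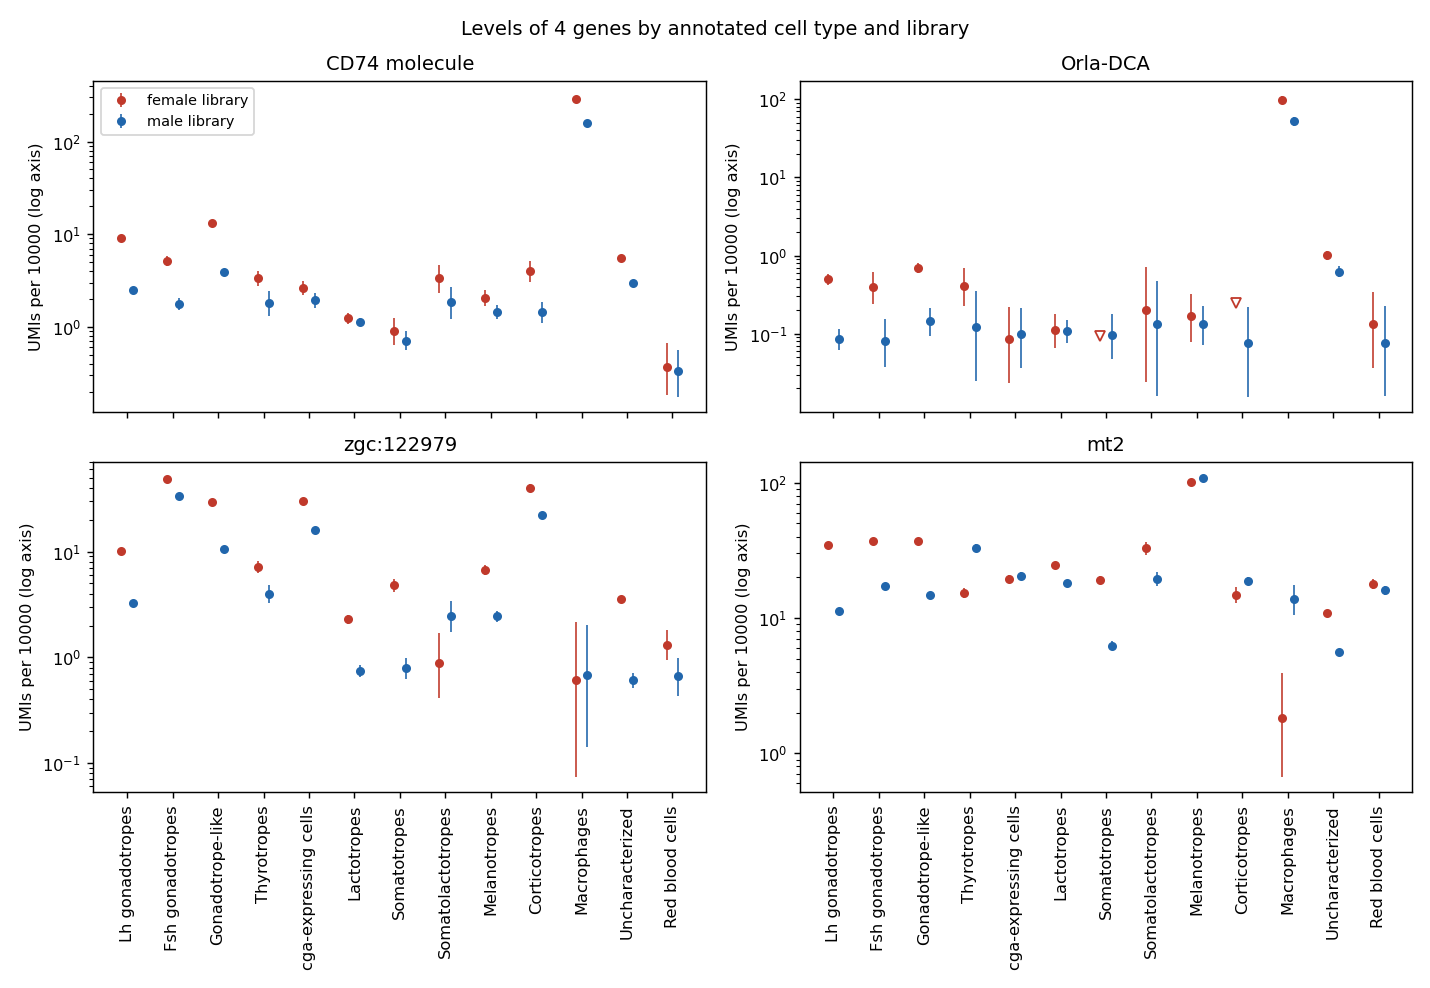
Levels of *CD74*, *Orla-DCA*, *zgc:122979* and *mt2* (UMIs per 10000, log axes) in the 13 annotated cell types, female library in red and male library in blue, with exact 95% Poisson intervals, and an open triangle at the upper limit where no UMI was counted. *CD74* was higher in females in each type, up to 3.58-fold in Lh gonadotropes, whereas *mt2* was higher in females in 7 of 11 types and lower in female thyrotropes.

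In uncharacterized cells, several members led by gonadotropes or *cga*-expressing cells were higher in females as well: *zgc:122979* had 3.57 against 0.606, *cabp5a* 15.6 against 4.41, *STMN1* 4.40 against 1.09, *CLEC3B* 0.646 against 0.0730, *qpct* 2.61 against 0.778 and *nif3l1* 6.32 against 2.15. *psmb7* had 7.655 against 3.234 and *crtac1a* 5.955 against 2.997. Other members led by these types went the other way. *cyp19b* had 1.479 in females and 8.049 in males, *hnrnpk* 1.513 and 6.176, and *crabp1a* ENSORLG00000023034 0.1232 and 0.5731. Without cluster 16 the female to male ratios of these 3 were 2.64, 1.08 and 0.904. The hormone gene moved with the members higher in females. At least 100 *cga* UMIs per 10000 were found in 53 of 475 female (11.2%) and 18 of 817 male (2.20%) uncharacterized cells. Without these cells the female to male ratio of *cabp5a* was 1.71 (1.57 to 1.86) in place of 3.53, that of *nif3l1* 1.47 in place of 2.94, that of *qpct* 1.52 in place of 3.35, that of *STMN1* 2.33 in place of 4.04, that of *CLEC3B* 2.91 (1.48 to 5.90) in place of 8.85, and that of *zgc:122979* 3.58 in place of 5.89, so that the last 3 stayed above 2-fold. The ratio of *psmb7* was 1.31 in place of 2.37, and that of *crtac1a* 1.22 in place of 1.99.

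The share of cells with a UMI was compared as well. With cells thinned to 2200 UMIs, 40 of the 51 genes were found in a larger share of cells of the leading type than of any other type in both libraries. Thinning left out 537 female and 841 male cells, among them all but 21 and 25 red blood cells. With 4 of 15 female macrophages left, this type fell below the minimum of 10 cells, so the 4 members led by macrophages could not be among the 40. Without thinning the count was 37. These counts were not taken over all genes, and as the members were chosen by level, nothing is read from them.

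The share of UMIs that came from introns did not itself enter the choice of the members. It is not independent of that choice, however, as it was taken from the same cells. Its denominator also holds the exon and spanning UMIs, which make up most counts of the matrix. The difference from all genes was not tested and nothing is read from it. The intron share was low for most members. The median over members was 0.541% in females and 0.686% in males, whereas the median over all genes with at least 100 such UMIs was 9.31% and 10.9%. Only 6 of 50 members in females and 5 of 51 in males were above the median of all genes. The highest share was that of *kctd12.1*, 53.3% and 55.5%, followed by *oacyl* with 32.2% and 31.2% and the *crabp1a* gene ENSORLG00000023034 with 23.3% and 16.6%. This order depended on reads that span an exon and an intron, which were counted in the denominator. Without them *si:ch211-156l18.7* rose from 14.8% and 18.4% to 65.0% and 51.05%, above *oacyl* with 34.1% and 32.4%, and *kctd12.1* stayed highest with 77.8% and 77.3%. No intron UMI was seen in either library for *Orla-DCA*, *Orla-DFA*, *gb*, *apoeb*, *pde6ha*, *ptgdsb.1*, *rgs5b*, *sb:cb81*, *si:ch211-103n10.5* and *HSPA2* (ENSORLG00000026984), of which *Orla-DCA* had 920 UMIs in females, so that its share could be up to 0.4002%. *kctd12.1* and *pde6ha*, at like levels in corticotropes, thus stood at opposite ends.

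**Figure D5:**
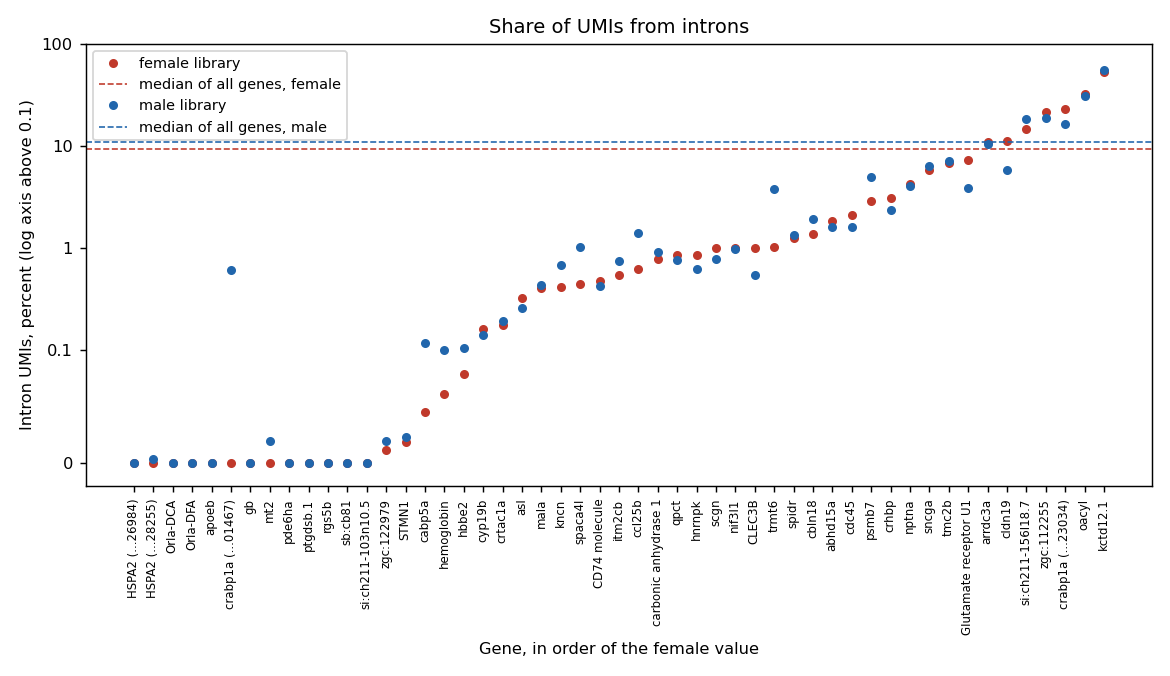
Percent of UMIs from introns (log axis above 0.1) for each member in order of the female value, in the female (red) and male (blue) library, with dashed lines at the medians of all genes. Most points lie below the lines at 9.31% and 10.9%, and *kctd12.1* is the highest in both libraries.

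For 7 members in each library, the exon and spanning tables held less than 90% of the UMIs in the count matrix, while the median was 99.5% in females and 99.7% in males. The share was lowest for *si:ch211-103n10.5*, with 9.04% of the matrix UMIs in females and 20.5% in males, and was under 90% also for *zgc:112255*, *ptgdsb.1*, *Glutamate receptor U1*, *hemoglobin*, *cyp19b* and *HSPA2* (ENSORLG00000026984). For these genes the intron share describes only the part of their UMIs that those tables hold.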

How the data were processed

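Each library comes as a sparse matrix in which the authors give the raw count of UMIs for a gene in a cell. Further deposited tables split the counts into those of exons, introns and reads that span both, and an annotation names the cluster and type of each cell. Libraries were made with the 10x Genomics 3′ kit. Cell Ranger and Seurat are named in the submitters' processing notes, without versions; the genome build is not given in the sources used here, so coordinates are left out. According to the study's methods, likely doublets had been removed by score; none were removed here. The deposited male marker table also holds mean levels and adjusted p-values from the authors' own comparison, which were not used; the tables served only to list names and identifiers (25 rows in the female and 80 in the male table). Spelling variants of a type were joined.

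Raw counts were summed per library and type (Python 3.11.15, numpy 2.4.6, scipy 1.17.1, pandas 2.3.3). No normalization across libraries and no test was applied, since there is 1 library per sex. A count of 0 was set to 3 UMIs in ratios. Leading types of each library were compared for genes with at least 100 UMIs in each library. Female to male ratios were taken in the leading type by the mean of both libraries' levels. They cover genes with at least 20 UMIs in that type in both libraries together. A gene was called different at 2-fold. Genes without an identifier in these tables were not analysed here.

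The members and lists were chosen with earlier results of these data known. Genes named with values were, for each type, up to 4 members it led with the highest level, up to 6 whose leading type differed between the libraries, up to 5 with the largest ratio in each direction, and the 3 highest and 3 lowest intron shares. Other genes, and the results on clusters, on cells with *sl* or *cga* and on single cells with most UMIs, were chosen after their values were seen.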

Additional observations from a re-analysis of the deposited data

Results flagged for a closer look

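For 5 members the order of 2 cell types was opposite in the libraries. With 1 library per sex, these differences were not tested. *crabp1a* ENSORLG00000001467 was 7.35 times as high in Lh gonadotropes as in uncharacterized cells in the female library and 0.0612 times as high in the male library. The female value came mostly from 1 cell and the male value from the 21 cells of cluster 16. *hnrnpk* was 2.84 times as high in *cga*-expressing cells as in uncharacterized cells in females and 0.897 times as high in males. *nif3l1* was 1.03 times as high in *cga*-expressing cells as in gonadotrope-like cells in females and 0.667 times as high in males. *rgs5b* was 1.35 times as high in somatolactotropes as in macrophages in females and 0.258 times as high in males, on 15 macrophages in each library. *HSPA2* ENSORLG00000028255 was 1.63 times as high in lactotropes as in corticotropes in females and 0.957 times as high in males.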

How the results depend on the processing

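The count of members with the same leading type in both libraries, 45 of 50, was between 41 and 46 under all alternatives run, and that of members at least 2-fold above the next type, 28, was between 22 (at a fold of 4) and 36 (at a fold of 1.5). The 5 members that differed at least 2-fold between the libraries became 8 with the mean over cells in place of pooled UMIs, 11 with exon UMIs alone and 9 at a fold of 1.5. They became 3 with uncharacterized cells split by cluster, where 46 members could be compared. With red blood cells left out, 2 members were higher in females and 7 in males, beside 4.725% and 2.948% of all genes. The genes led by red blood cells took another leading type in this setting. Of their UMIs elsewhere, few cells held much: 3 of 127 male somatotropes held 1548, 351 and 298 of the 2345 *gb* UMIs of that type, and its level without them was 1.49. Beside the 11 members with exon UMIs, 4.54% of all genes were higher in females and 4.68% in males. These shares were 6.095% and 3.323% with the mean over cells, and 5.299% and 2.677% with the split by cluster. At a fold of 1.5 they were 14.01% and 8.618%. The count of members detected in the largest share of cells of the leading type was 37 to 45. No ratio of a member reversed its call, but ratios below 2-fold could change direction, as that of *mt2* in melanotropes did. The split by cluster, leaving out types with under 40 cells, red blood cells or the cell with most UMIs, and thinning to 400 UMIs were chosen after seeing the data. No paired analysis was possible because the labels give 1 library per sex and no replicate numbers. Low counts limit *ccl25b*, *cldn19* and *rgs5b*, and the 15 macrophages per library limit 4 members.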
